A study of Mus musculus with 12 samples.

Results

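Gene expression was compared between the submandibular glands (SMGs) of male *Pou2f3* knockout mice and male wild-type mice, which make up 6 of the 12 bulk RNA-sequencing libraries analysed. The knockout group held 3 males of the line C57BL/6J-*Pou2f3*em1Cbwi/J and the wild-type group 3 C57BL/6J males, all aged 8 weeks and from the Jackson Laboratory, and each library was a biological replicate from its own mouse. The members were defined by their labels (male, knockout or wild type) and not by a measured value, although earlier results of these data were known. The allele is a germline one, so that the factor is missing in every tissue and not in the gland alone. The 6 female libraries, 3 knockout and 3 wild type of the same lines and age, entered the estimate of the spread, the slopes of the marker scores used as covariates, and the comparison of the sexes at the end. The sources used here give neither the hour at which the glands were taken nor whether the groups shared litters.

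POU2F3 is the transcription factor without which tuft cells (TCs), rare chemosensory cells of epithelia, do not form. The mouse SMG consists of acini, which secrete the primary saliva, and of ducts, which take up sodium and chloride, release potassium and bicarbonate and, in males, carry large granular convoluted tubules that store growth factors and kallikreins. Like other tissues, the gland runs a circadian clock. In it, BMAL1 pairs with CLOCK or NPAS2 and activates genes with E-box elements, among them the Period, Cryptochrome and *Nr1d* repressors and the PAR bZIP factors *Dbp*, *Tef* and *Hlf*. The NR1D proteins repress *Bmal1*, *Npas2* and *Nfil3* through ROR elements, and the PAR bZIP factors and NFIL3 act in opposite directions on D-box elements, so that the mRNAs of the positive limb and of the repressors peak at opposite times of the day.

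Total counts of the 6 male libraries ranged from 49620018 to 67882207, and a count of 0 in a library allows up to 3 counts, or 0.0442 to 0.0605 CPM (counts scaled to a common library total), which covers counting error only. *Pou2f3* (ENSMUSG00000032015.17, chromosome 9, 43035228 to 43121666 on GRCm39) had counts of 0, 3 and 1 in knockout males and 1, 10 and 0 in wild-type males. It was at the limit of detection in both groups, and no difference was detectable at this depth. Among 14 TC genes, no count of *Gnat3* or *Il25* was found in any of the 6 libraries, *Trpm5* had at most 4 counts, and of the 6 abundant enough to be tested none was called by edgeR or DESeq2, with 1 at an unadjusted p under 0.05 in edgeR, against 11.5% of all genes. Of these 6, 5 had a higher value in knockout males (median log2 fold change 0.40, and −0.17 with scores of fat and macrophage markers in the model). The one with the small p was *Alox5*, an enzyme of leukotriene synthesis that leukocytes also express, with 36.4, 80.6 and 70.8 normalized counts (counts scaled to the same library size after edgeR's TMM adjustment) in knockout and 20.5 to 26.9 in wild-type males, and with these scores its log2 fold change went from 1.39 to 0.30. The libraries carried the marks of male SMG, with 1761 to 2196 counts of the Y-linked *Ddx3y*, at most 3 counts of *Xist* and 6693 to 8381 counts of the ductal keratin *Krt8*.

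A total of 3 male libraries stood apart from their groups. Wild-type replicate 3 held RNA of mucous sublingual type, with 427285 normalized counts of the mucin *Muc19*, against 104 to 5958 in the other males, and 41695 of *Dcpp2*, against 2.46 to 503. It also held 29260 normalized counts of the parotid protein gene *Bpifa2*. Knockout replicate 2 held parotid markers, with 117438 normalized counts of *Bpifa2* and 53158 of the amylase gene *Amy1*, which had 577 to 1316 in the other 4 males. Wild-type replicate 2 had 1489 normalized counts of *Bpifa2*, and the other 3 males 5.45 to 114. The *Dcpp* and amylase genes have close copies, so that counts within each family may be divided among them, and part of this marker set was chosen after the values were seen. Knockout replicate 1 stood near the wild-type males. Its correlation of log2 CPM across genes, given as a description, was 0.975 to 0.979 with the wild-type libraries and 0.970 and 0.974 with knockout replicates 2 and 3.

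**Figure D1:**
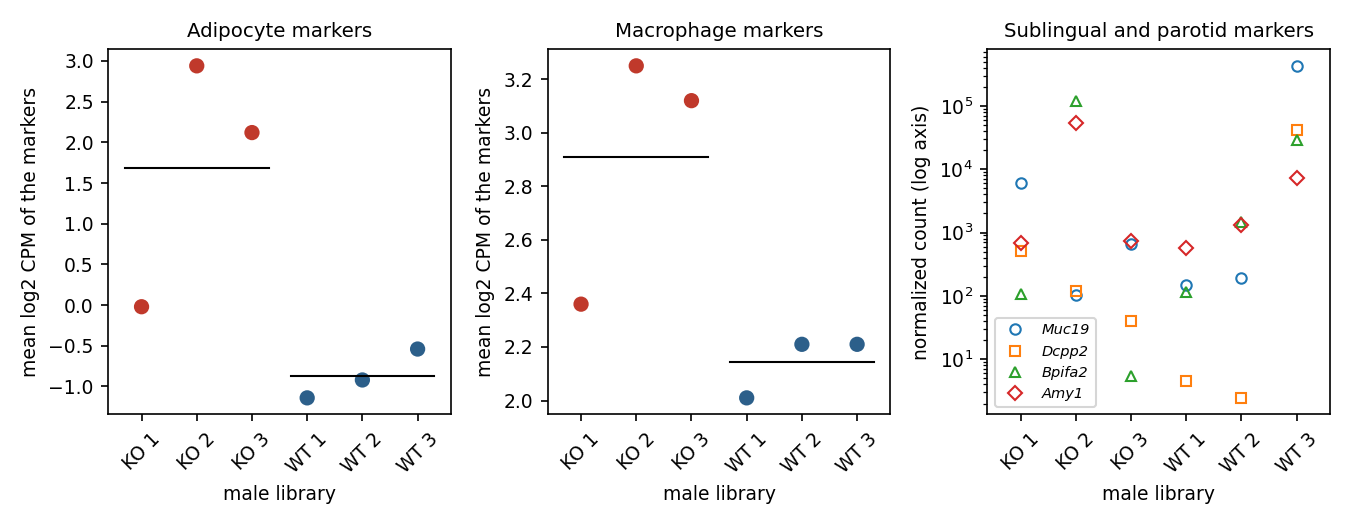
Marker levels in each male library, with knockout (KO) in red and wild type (WT) in blue. The left and middle panels show the mean log2 CPM of adipocyte and macrophage markers, with the group mean as a bar, and the right panel normalized counts of 4 sublingual and parotid genes on a log axis. Knockout replicate 1 lies nearest to the wild-type males in both scores, and wild-type replicate 3 and knockout replicate 2 carry the other-gland genes.

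Scores of fat and macrophage markers were higher in the 3 knockout males, although no gene of these lists passed edgeR's test. The adipocyte score, the mean log2 CPM of 18 marker genes, was −0.02, 2.94 and 2.12 in knockout replicates 1 to 3 and −1.14, −0.92 and −0.54 in the wild-type males. The macrophage score, over 24 markers, was 2.36, 3.25 and 3.12 in knockout and 2.01, 2.21 and 2.21 in wild-type males. Neither score overlapped between the groups, and each difference (2.55 for adipocytes, 0.76 for macrophages) had a two-sided exact permutation p of 0.10, the smallest that 3 against 3 libraries allow. Over the 5 most abundant markers of each list the difference was 0.51 for adipocytes and 0.76 for macrophages. The median log2 fold change was 4.39 for the adipocyte list and 0.75 for the macrophage list, against −0.04 over all genes tested. By edgeR 0 genes of either list were called, whereas 13 and 16 had an unadjusted p under 0.05 and 7 and 5 were called by DESeq2. *Cfd*, which encodes the fat cell product adipsin, had 74.6, 1730 and 1289 normalized counts in knockout and 12.3 to 23.9 in wild-type mice (log2 fold change 5.94 with an SE of 1.46 and, by edgeR with Benjamini-Hochberg (BH) adjustment, an adjusted p of 0.13). *Lpl*, the lipoprotein lipase, had 1350, 3943 and 2851 against 614 to 879 (log2 fold change 1.93, SE 0.45, adjusted p = 0.12 in that test). The scavenger receptor *Cd163* of tissue macrophages had 331, 943 and 950 against 252 to 282 (log2 fold change 1.45 with an SE of 0.35 and a BH-adjusted edgeR p of 0.12). In each of the 3 genes, knockout replicate 1 was the lowest knockout library. Markers of blood and mast cells had values of the same kind, none of them called by edgeR. The 4 blood genes tested had a median log2 fold change of 2.04, and the summed normalized counts of the list were 167, 570 and 435 in knockout and 83.8 to 100 in wild-type males, again lowest in knockout replicate 1. The 5 mast cell genes tested had a median of 2.17, with *Kit*, which epithelial and other cells also express, lower in knockout and the other 4 higher. Of the blood and mast cell genes, 3 and 5 had an unadjusted p under 0.05, against 11.5% of all genes, and 2 and 4 were called by DESeq2, against 2.31%. Both mast cell counts include *Kit*, the lower gene. The part of blood and mast cells in the results below was not tested.

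Against this background, 42 of 17893 genes tested, or 0.235%, were differentially expressed genes (DEGs) in knockout males by edgeR's quasi-likelihood test at a Benjamini-Hochberg adjusted p under 0.05. Of these, 18 were up-regulated (0.101%) and 24 down-regulated (0.134%), and 16 of the first and 13 of the second had an absolute log2 fold change above 1. At an unadjusted p under 0.05, 2056 genes (11.5%) differed. The number called depended on the test and on the filter. DESeq2 called 396 of 17161 genes (2.31%), of which 219 were higher (1.28%) and 177 lower (1.03%), and edgeR without a low-count filter 389 of 30910 (1.26%), of which 222 were higher (0.718%) and 167 lower (0.540%), so that in both the larger share was up-regulated. Of the 42 DEGs, 41 were among the genes called by DESeq2 and all 42 among those called without the filter. In each of the 42 DEGs the 3 knockout libraries lay on one side of the 3 wild-type libraries, above them in all 18 up-regulated and below them in all 24 down-regulated genes. Over all genes tested, 14.5% were free of overlap, 6.51% with higher and 7.95% with lower values in knockout males. Among protein-coding genes 1046 were free of overlap with higher and 1075 with lower values. Among long noncoding RNA genes these counts were 75 and 183, and among processed pseudogenes 8 and 38. The difference between these classes was not tested. When both scores were added to the model, all 42 DEGs kept their direction. None was on the adipocyte or macrophage list and none fell under 50% of its log2 fold change, the limit below which a gene was set aside. The share kept ran from 50.8% (*Rnf144a*) to 153% (*Ppp1r3c*). With a stricter limit of 75%, added after the data were seen, 10 up-regulated and 5 down-regulated genes would be set aside.

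The share kept is given for the clock DEGs and for the other down-regulated and up-regulated DEGs. The ranges overlapped, and a difference between these groups was not tested. The 14 DEGs on clock lists kept a median of 94.2% (77.1% to 153%), the 14 other down-regulated genes 89.2% (56.7% to 123%) and the 14 other up-regulated genes 61.4% (50.8% to 100%). In 13 of these last 14 genes, knockout replicate 1, which had the lowest scores, was also the lowest of the knockout libraries. With both scores in the model the standard errors grew by a median factor of 1.42, and 7 genes were called, all of them among the 42: the clock genes *Dbp*, *Npas2*, *Bmal1*, *Hlf*, *Ppp1r3c* and *Nfil3*, and *Tspan4*. With the adipocyte score alone 8 genes were called, and with the macrophage score alone 10. The scores move with genotype in the males, so that a covariate can also take up part of a genotype difference, and the 2 cannot be told apart in 6 libraries.

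**Figure D2:**
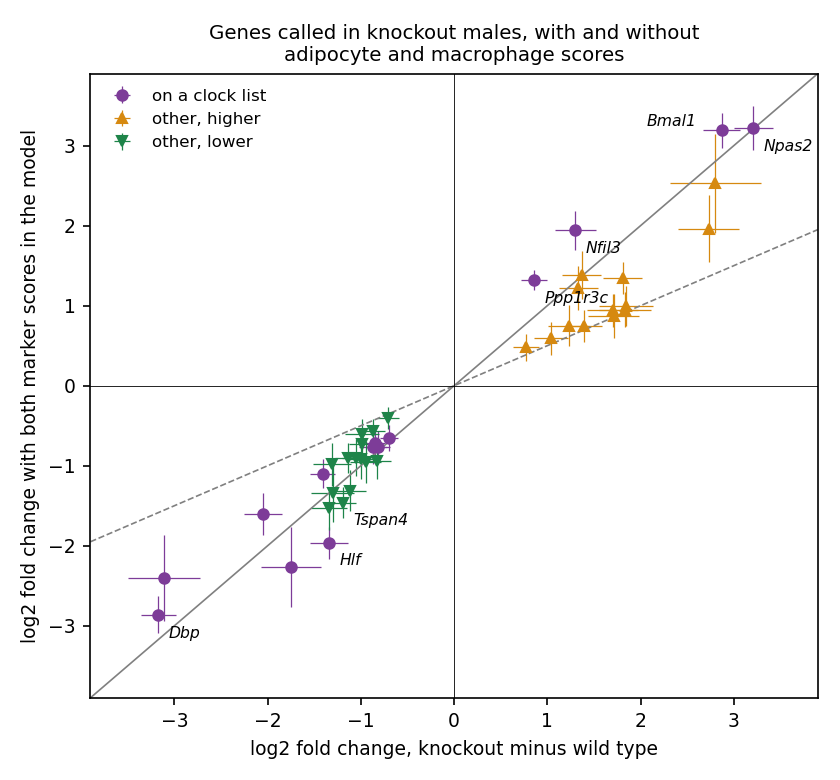
Log2 fold change of the DEGs in knockout males without (horizontal axis) and with (vertical axis) adipocyte and macrophage scores in the model, with standard errors as bars. The solid line marks equal values and the dashed line 50% of the change. Clock genes lie around the solid line and most other up-regulated genes near the dashed one; the 7 genes called with both scores are named, and *Gm7488* is left out because the wild-type males had none of its counts.

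The number of DEGs depended on single mice. It was 635 of 18575 genes (3.42%) without knockout replicate 1, and 14, 15, 13, 25 and 13 without knockout replicates 2 and 3 and wild-type replicates 1, 2 and 3. All 42 genes were among the 635. Without the other 5 mice, in the same order, 13, 15, 13, 22 and 12 of the 42 were called again. The sign of the change was the same in all 6 of these fits for each of the 42 genes. Those called in every one of the 6 fits were the clock genes *Dbp*, *Npas2*, *Bmal1*, *Tef*, *Per3*, *Bhlhe41* and *Ciart* and the genes *Col5a3*, *Tspan4*, *Sphkap* and *Slc4a11*. Without the 2 male libraries that held RNA of other glands, an alternative added after the data were seen, all 42 kept their sign. They kept a median of 93.6% of the log2 fold change (75.1% to 115%), and *Dbp*, *Npas2*, *Bmal1*, *Tef*, *Per3*, *Tspan4* and *Ciart* were still called. All female libraries stayed in this fit, and sublingual markers varied among them too. Normalized counts in females ran from 413 to 283335 for *Muc19* and from 0 to 24498 for *Dcpp2*. *Slc9a4*, *Foxi2*, *Alas1*, *Acsl6*, *Rhob* and *Gm7488* lay outside the rule for named genes and are named after their values were seen, so that every DEG is accounted for.

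The first group of DEGs belonged to the clock. The hour at which each gland was taken is not given. A difference in hour between the groups was not tested and cannot be told apart from genotype. Of 21 core clock genes tested, 12 were DEGs, and 2 of 9 output genes joined them, against 0.235% of all genes. The genes called were *Npas2* and *Bmal1* of 6 genes of the positive limb, both up-regulated, 6 of 11 repressors, all down-regulated, and the 4 genes of the PAR bZIP list. The promoters of 33 of the 42 DEGs were found in a RefSeq table (built on GRCm38.p6) as windows from 250 bases before to 50 bases after a start site. They were searched on both strands for the E-box CACGTG, the D-box TTATGTAA and the core AGGTCA of the ROR element, none of which contains another. The E-box was present in 6 of the 33 genes, *Tef*, *Bhlhe41*, *Ciart*, *Ppp1r3c*, *Tspan4* and *Smpdl3b*, and in 7.15% of all 32851 windows. The D-box was present in 1, *Per3*, and in 0.938% of all windows, and the ROR core in 5, *Bmal1*, *Nr1d2*, *Nfil3*, *Acsl6* and *Foxi2*, and in 16.3% of all windows. A gene may have more than 1 window, so that these shares are not like for like. Of the 6 genes picked by the rule for promoters, *Dbp*, *Npas2*, *Col5a3* and *Sphkap* held none of these letters in their windows.

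The following 5 windows are shown because they hold the elements through which the clock is known to act, and 3 of them (*Ciart*, *Tef* and *Per3*) were picked after the matches were seen. Capitals mark the motifs. Each window matched GRCm39 exactly once, at the position given: *Bmal1* at chr7:112806468-112806767 (plus strand, one of its 2 start sites, the other holding no match), with the ROR core beginning 32 bases after it; *Ciart* at chr3:95789491-95789790 (minus strand), with E-boxes beginning 116, 58 and 44 bases before the start; *Tef* at chr15:81695365-81695664 (plus strand, one of its 2 start sites), with an E-box 138 bases before it; *Per3* at chr4:151129073-151129372 (minus strand), with D-boxes 205 and 158 bases before it; and *Tspan4* at chr7:141056043-141056342 (plus strand, one of its 2 start sites), with an E-box 51 bases before it.
Bmal1: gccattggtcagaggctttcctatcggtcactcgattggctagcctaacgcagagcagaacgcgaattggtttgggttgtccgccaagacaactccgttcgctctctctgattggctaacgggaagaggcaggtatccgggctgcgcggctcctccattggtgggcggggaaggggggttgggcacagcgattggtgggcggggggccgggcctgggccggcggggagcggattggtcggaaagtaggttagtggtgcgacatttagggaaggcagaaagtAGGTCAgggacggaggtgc
Ciart: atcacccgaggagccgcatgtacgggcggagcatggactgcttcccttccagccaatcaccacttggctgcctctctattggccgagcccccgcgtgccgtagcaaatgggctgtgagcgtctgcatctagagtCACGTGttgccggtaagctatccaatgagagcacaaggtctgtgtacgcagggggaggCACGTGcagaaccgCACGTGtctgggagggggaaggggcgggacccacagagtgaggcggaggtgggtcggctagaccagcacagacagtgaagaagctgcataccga
Tef: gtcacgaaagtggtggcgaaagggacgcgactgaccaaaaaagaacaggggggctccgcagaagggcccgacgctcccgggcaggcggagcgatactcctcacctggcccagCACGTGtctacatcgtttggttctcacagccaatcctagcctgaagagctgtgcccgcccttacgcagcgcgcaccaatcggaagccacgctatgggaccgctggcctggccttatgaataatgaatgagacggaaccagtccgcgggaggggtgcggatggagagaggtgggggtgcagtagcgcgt
Per3: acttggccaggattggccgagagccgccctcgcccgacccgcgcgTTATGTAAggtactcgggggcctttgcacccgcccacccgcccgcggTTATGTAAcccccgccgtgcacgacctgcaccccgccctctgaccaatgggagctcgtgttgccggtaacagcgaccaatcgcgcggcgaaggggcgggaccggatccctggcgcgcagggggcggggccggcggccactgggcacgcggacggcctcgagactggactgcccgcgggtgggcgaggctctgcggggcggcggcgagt
Tspan4: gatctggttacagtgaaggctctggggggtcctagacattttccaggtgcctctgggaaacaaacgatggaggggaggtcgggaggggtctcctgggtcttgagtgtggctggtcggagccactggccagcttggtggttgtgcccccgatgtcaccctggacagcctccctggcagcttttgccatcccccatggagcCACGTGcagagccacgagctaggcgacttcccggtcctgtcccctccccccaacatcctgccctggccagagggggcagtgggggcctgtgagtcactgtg

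In the positive limb, *Npas2* and *Bmal1* were up-regulated. *Npas2* (ENSMUSG00000026077.16, chromosome 1, 39232705 to 39402323), the partner of BMAL1 that can stand in for CLOCK, had 279, 272 and 212 normalized counts in knockout males and 27.7, 23.0 and 31.3 in wild-type males. The groups were far apart, with replicate 3 the lowest of the knockout males. The log2 fold change was 3.21 (SE 0.21 and a BH-adjusted edgeR p of 1.1e-05), and 3.22 with both scores in the model. *Bmal1* (ENSMUSG00000055116.9, chromosome 7, 112806152 to 112914735) had 654, 480 and 417 normalized counts in knockout and 64.6, 74.7 and 72.6 in wild-type males, with a log2 fold change of 2.87 (SE 0.20, adjusted p = 1.4e-05 in that test). Knockout replicate 1, the library nearest to the wild type in its fat and macrophage content, was the highest in both genes. *Clock* had 3155, 3297 and 3638 against 2528, 3109 and 2553, and the change was not called (log2 fold change 0.30 with an SE of 0.10 and a BH-adjusted edgeR p of 0.26). Nor were those of the 3 ROR receptor genes of the list.

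The PAR bZIP list was called in full, with *Dbp*, *Tef* and *Hlf* down-regulated and their antagonist *Nfil3* up-regulated. *Dbp* (ENSMUSG00000059824.13, chromosome 7, 45354512 to 45359627) had the smallest p of all genes tested. Its normalized counts were 344, 236 and 279 in knockout and 2611, 2456 and 2682 in wild-type males, a 9.02-fold difference of the means (log2 fold change −3.17 with an SE of 0.19 and a BH-adjusted edgeR p of 6.4e-06). *Tef* (chromosome 15, 81686622 to 81711064) had 2483, 1741 and 2180 against 6117, 5217 and 5682 (log2 fold change −1.41, SE 0.13, adjusted p = 5.1e-04 in that test). *Hlf* had 131, 189 and 183 against 454, 379 and 444 (log2 fold change −1.34 with an SE of 0.20 and a BH-adjusted edgeR p of 0.016). *Nfil3*, the repressor that competes with them at D-boxes, had 842, 678 and 632 against 353, 246 and 274 (log2 fold change 1.30 with an SE of 0.22 and a BH-adjusted edgeR p of 0.037). With both scores in the model the change was larger in *Hlf* (−1.96) and *Nfil3* (1.94) and smaller in *Tef* (−1.10, adjusted p = 0.095).

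All 11 repressor genes tested had a negative log2 fold change, with a median of −0.70, and 6 of them were DEGs. *Per3* (chromosome 4, 151081373 to 151129140) had 692, 470 and 612 normalized counts in knockout and 2992, 1821 and 2514 in wild-type mice (log2 fold change −2.05 with an SE of 0.20 and a BH-adjusted edgeR p of 5.8e-04). *Ciart*, a repressor of CLOCK and BMAL1, had 25.2, 9.37 and 13.6 against 198, 124 and 94.8 (log2 fold change −3.11, SE 0.39, adjusted p = 0.0041 in that test), the largest fold change of this list. *Per2* had 142, 268 and 389 against 1168, 622 and 900 (log2 fold change −1.75 with an SE of 0.32 and a BH-adjusted edgeR p of 0.046). The smaller changes were those of *Bhlhe41*, a basic helix-loop-helix repressor (−0.85, SE 0.11), *Nr1d1* (−0.87, SE 0.15) and *Nr1d2* (−0.70, SE 0.10), the nuclear receptors that silence *Bmal1*. Their normalized counts ran from 517 to 644, 1545 to 1718 and 3625 to 4387 in knockout males and from 985 to 1112, 2890 to 3221 and 6436 to 6974 in wild-type males. The 5 repressors not called were *Cry2* (log2 fold change −0.55, edgeR, Benjamini-Hochberg adjusted p = 0.13), *Cipc* (−0.20), *Cry1* (−0.25), *Bhlhe40* (−0.14) and *Per1* (−0.11, adjusted p = 0.91 from the same test). *Per1*, the Period gene that also answers to glucocorticoids and other acute signals, was named after its value was seen. Its counts overlapped, at 1651, 1888 and 1626 in knockout and 2514, 1355 and 1721 in wild-type males.

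**Figure D3:**
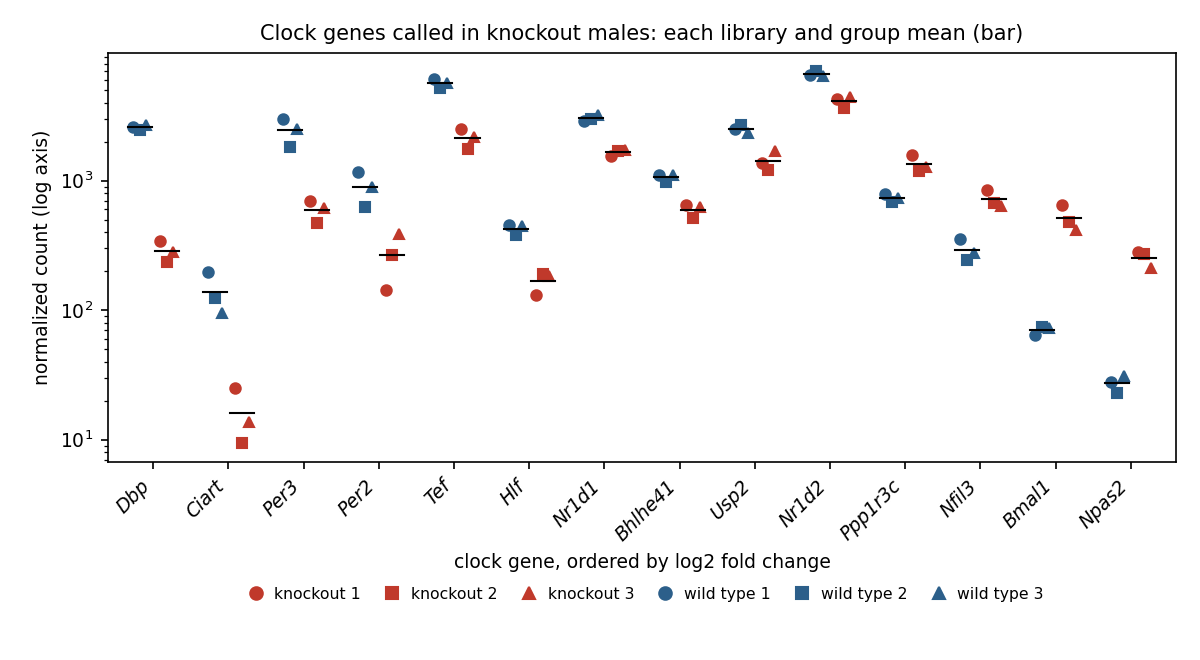
Normalized counts (log axis) of the 14 clock genes called in knockout males, in each of the 3 knockout (red) and 3 wild-type (blue) libraries, with group means as bars. Genes are ordered by log2 fold change from *Dbp* (−3.17) to *Npas2* (3.21), and in no gene do the groups overlap.

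Among 9 clock output genes, *Usp2* fell and *Ppp1r3c* rose. *Usp2* (chromosome 9, 43978264 to 44006924), a deubiquitinase whose mRNA is rhythmic in many tissues, had 1373, 1203 and 1700 normalized counts in knockout and 2514, 2695 and 2329 in wild-type mice (log2 fold change −0.82 with an SE of 0.13 and a BH-adjusted edgeR p of 0.023). It lies 0.857 Mb from *Pou2f3*, the nearest of 4 DEGs on that chromosome. The others were *Arhgap20* at 8.55 Mb, *Col5a3* at 22.3 Mb and *Alas1* at 63.0 Mb, and whether position near the targeted gene bears on these values was not tested. *Ppp1r3c*, which directs a phosphatase to glycogen, had 1571, 1189 and 1271 against 793, 687 and 738 (log2 fold change 0.86 with an SE of 0.14 and a BH-adjusted edgeR p of 0.029). *Cdkn1a*, a cell cycle inhibitor, had 174, 306 and 195 against 51.1 to 69.2 and was not called (log2 fold change 1.86, SE 0.47, adjusted p = 0.14 in that test). *Wee1*, a cell cycle kinase, had a log2 fold change of −0.37 (edgeR, Benjamini-Hochberg adjusted p = 0.31).

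The second group comprised up-regulated genes of the connective tissue and its matrix. Fibrillar collagens, fibrillins and spondins are laid down mainly by fibroblasts, and Adamts proteases and plasminogen activators remodel the matrix. Of 37 collagen genes tested 1 was a DEG, of 37 matrix glycoprotein genes 2, of 34 matrix proteases 1, of 10 fibroblast markers 1 and of 16 genes of the fibrin clot 1, all of them up-regulated, against 0.101% of all genes; most genes of each list were not called. *Col5a3* (ENSMUSG00000004098.8, chromosome 9, 20681337 to 20726418), a chain of type V collagen, had 471, 802 and 703 normalized counts in knockout and 185, 187 and 191 in wild-type mice (log2 fold change 1.81 with an SE of 0.21 and a BH-adjusted edgeR p of 0.0024), and kept 73.8% of the change with both scores. *Adamts5*, an aggrecan-cleaving protease, had 699, 1369 and 1055 against 254, 363 and 262 (log2 fold change 1.83 with an SE of 0.28 and a BH-adjusted edgeR p of 0.017). *Dpt*, the fibroblast matrix protein dermatopontin, had 320, 729 and 433 against 135, 154 and 125 (log2 fold change 1.84, SE 0.29, adjusted p = 0.017 in that test). Knockout replicate 1 was the lowest and replicate 2 the highest of the knockout males in each of these 3 genes, in the order of the adipocyte scores. *Adamts5* and *Dpt* kept 52.1% and 54.4% of their change.

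*Fbn2* and *Spon2* kept more of theirs. *Fbn2* (ENSMUSG00000024598.10), a fibrillin prominent in developing elastic fibres, had 69.9, 114 and 120 normalized counts in knockout and 13.1, 9.85 and 20.6 in wild-type mice (log2 fold change 2.80 with an SE of 0.49 and a BH-adjusted edgeR p of 0.037), of which 90.6% was kept. *Spon2*, a secreted spondin, had 456, 411 and 297 against 130, 160 and 160 (log2 fold change 1.37, SE 0.21, adjusted p = 0.017 in that test) and kept 100%. Among the matrix genes called, *Spon2* was the one in which knockout replicate 1 was the highest knockout library. *Plat*, the tissue plasminogen activator, had 167, 254 and 172 against at most 89.2 (log2 fold change 1.23 with an SE of 0.22 and a BH-adjusted edgeR p of 0.043) and kept 60.7%.

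The other genes of these lists did not pass edgeR's test, whereas DESeq2 called 6 of 10 fibroblast markers, 10 of 37 matrix glycoproteins, 5 of 34 matrix proteases, 3 of 16 fibrin clot genes and 2 of 37 collagens, against 2.31% of all genes, and of these *Ltbp2* alone was lower. Matrix glycoproteins, matrix proteases, fibrin clot genes and collagens had median log2 fold changes of 0.52, 0.38, 0.42 and 0.22. With both scores these were −0.00, −0.02, −0.15 and −0.13. All 10 fibroblast markers had a positive log2 fold change, with a median of 0.71, which was −0.04 with both scores. Their summed normalized counts were 40746, 69783 and 56078 in knockout and 32369, 35823 and 34706 in wild-type males. The part of fibroblast content in the matrix genes was not tested. In whole glands cell number and RNA per cell cannot be told apart, here and in the ionocyte genes below. *Loxl1*, which cross-links elastin (log2 fold change 0.91, edgeR, Benjamini-Hochberg adjusted p = 0.057), *Fbn1* (0.98, adjusted p = 0.098), *Pi16* (1.33, adjusted p = 0.12), *Pdgfra* (0.96, adjusted p = 0.12) and *Col3a1* (0.81, adjusted p = 0.21) were among those with the smallest p in edgeR that were not called; DESeq2 called all 5. *Ltbp2*, a microfibril protein of the same list, had the opposite sign, with 878, 563 and 628 normalized counts against 1135 to 1224 (log2 fold change −0.76, edgeR, Benjamini-Hochberg adjusted p = 0.089).

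Other up-regulated genes encode regulators of the cytoskeleton, signalling and metabolism. *Sphkap* (ENSMUSG00000026163.18, chromosome 1, 83231860 to 83386011), an anchoring protein of protein kinase A, had 75.5, 164 and 163 normalized counts in knockout and 20.0, 23.0 and 17.3 in wild-type mice (log2 fold change 2.73 with an SE of 0.33 and a BH-adjusted edgeR p of 0.0033). It was called in each of the 6 fits with 1 mouse left out, and kept 71.8% of its change with both scores. *Rhoj*, a small GTPase of endothelial cells, had 552, 1058 and 714 against 262, 322 and 306 (log2 fold change 1.39, SE 0.20, adjusted p = 0.013 in that test) and kept 53.3%. The endothelial list as a whole had a median log2 fold change of −0.03, with 0 of 9 genes called by edgeR or DESeq2 and 2 at an unadjusted p under 0.05, against 11.5% of all genes. *Arhgap20*, a GTPase-activating protein (1.70), *Rnf144a*, a ubiquitin ligase (1.71), *Gfpt2*, an enzyme of the hexosamine pathway (1.04), and *Rhob*, another small GTPase (0.77), kept between 50.8% and 62.1% of the log2 fold changes given here. The cadherin gene *Dchs2* kept 91.5%, with 201, 253 and 207 normalized counts against 76.4 to 95.7 (log2 fold change 1.33 with an SE of 0.21 and a BH-adjusted edgeR p of 0.017). *Gm7488*, a processed pseudogene, had counts of 22, 45 and 32 in knockout and 0 in each wild-type male. It was at least 12.7-fold higher in knockout males, taking 3 counts per wild-type library as the floor, and reads of its parent gene could have been assigned to it. It had a count of 0 in all female libraries.

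**Figure D4:**
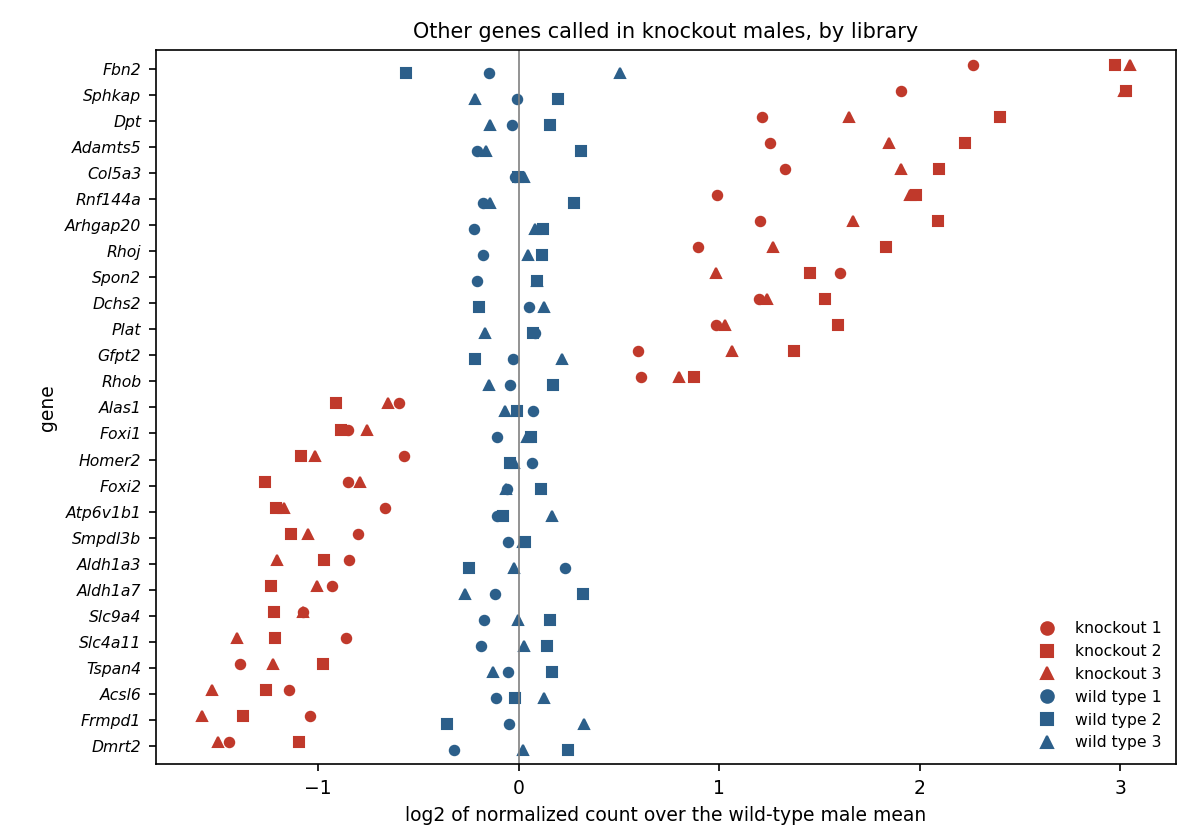
The DEGs outside the clock lists, as the log2 of each library's normalized count over the mean of the 3 wild-type males (blue), with the knockout males in red. In the up-regulated genes knockout replicate 1 (circle) lies nearest to the wild type except in *Spon2*, and in most down-regulated genes it is also the nearest; *Gm7488* is left out because its wild-type counts were 0.

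The third group comprised down-regulated genes of ductal ion transport. Ionocytes are rare duct cells rich in proton pumps and chloride channels, and FOXI1 is the transcription factor that directs them. All 6 ionocyte genes tested had a negative log2 fold change (median −0.78, and −0.76 with both scores, when *Cftr* was positive), against 57.5% of all genes with a negative value, and 2 of them were DEGs, against 0.134% of all genes called as lower. *Foxi1* (ENSMUSG00000047861.3, chromosome 11, 34154338 to 34158089) had 510, 498 and 545 normalized counts in knockout and 855, 962 and 947 in wild-type mice (log2 fold change −0.83 with an SE of 0.15 and a BH-adjusted edgeR p of 0.043). The knockout values lay close together and replicate 1 was in the middle. *Atp6v1b1*, a proton pump subunit, had 390, 268 and 275 against 575, 587 and 696 (log2 fold change −0.99, SE 0.18, adjusted p = 0.047 in that test). *Foxi1* kept 113% of its change with both scores and *Atp6v1b1* 60.5%. Both calls were lost in 5 of the 6 fits with 1 mouse left out and held without knockout replicate 1. Summed normalized counts of the 6 ionocyte genes were 9108, 5732 and 5497 in knockout and 8287, 8593 and 9327 in wild-type males. In this sum knockout replicate 1 lay within the wild-type range.

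The other 4 ionocyte genes were not called by edgeR, and DESeq2 called 2 of them, *Ascl3* and *Stap1*, against 2.31% of all genes. *Ascl3*, a transcription factor of these cells, had 377, 242 and 262 normalized counts against 536, 935 and 643 (log2 fold change −1.26 with an SE of 0.29 and a BH-adjusted edgeR p of 0.11). *Stap1* had a log2 fold change of −0.73 (edgeR, Benjamini-Hochberg adjusted p = 0.16) and the pump subunit *Atp6v0d2* one of −0.27 (adjusted p = 0.65 from the same test). For the chloride channel *Cftr*, which other duct and acinar cells also express, it was −0.04, with 4317 normalized counts in knockout replicate 1, 2055 and 2024 in the other knockout males and 2498 to 3221 in the wild type, and it turned to 0.57 with the macrophage score and to 0.62 with both. *Foxi2*, a related forkhead factor, had 268, 201 and 279 against 464, 522 and 462 (log2 fold change −0.95 with an SE of 0.17 and a BH-adjusted edgeR p of 0.037) and kept 99.2%.

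Of 33 ion transport genes tested 27 had a negative log2 fold change, against 57.5% of all genes, and 1 was a DEG, against 0.134% of all genes called as lower. DESeq2 called 3 of the 33, *Slc4a11*, *Kcnma1* and *Ano4*, against 2.31% of all genes. The edgeR call was *Slc4a11* (ENSMUSG00000074796.11, chromosome 2, 130526028 to 130539898), a membrane transporter of protons and ammonia, which had 753, 590 and 517 normalized counts in knockout and 1200, 1509 and 1396 in wild-type mice (log2 fold change −1.14 with an SE of 0.14 and a BH-adjusted edgeR p of 0.0038). It kept 78.7% of the change with both scores and was called without each single mouse. The sodium-proton exchanger *Slc9a4*, which was not on that list, had 158, 143 and 158 against 295, 371 and 332 (log2 fold change −1.12, SE 0.18, adjusted p = 0.025 in that test). Among the genes of the list with the next smallest p were 2 potassium channels, *Kcnma1* with 3458, 2622 and 2287 against 4552 to 4926 (log2 fold change −0.75, edgeR, Benjamini-Hochberg adjusted p = 0.068) and *Kcnn4* with −0.50 (adjusted p = 0.21). *Ano4* and *Muc20* were followed because the study names them for male glands. *Ano4*, a member of the anoctamin family of channels and scramblases, had 37.3, 29.1 and 19.1 against 70.7, 47.6 and 102 (log2 fold change −1.37 with an SE of 0.33 and a BH-adjusted edgeR p of 0.12), without overlap, and was called by DESeq2 (adjusted p = 0.0088). *Muc20*, a transmembrane mucin, had 22.4, 12.2 and 14.5 against 37.7, 54.2 and 38.8 (log2 fold change −1.40, SE 0.40, edgeR adjusted p = 0.19) and was not called by DESeq2 (adjusted p = 0.060).

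The remaining down-regulated genes are given singly. Of 14 retinoid genes tested 2 were DEGs, both down-regulated, against 0.134% of all genes called as lower. In 9 of the 14 the log2 fold change was positive (median 0.08, and −0.23 with both scores). *Tspan4* (ENSMUSG00000025511.16, chromosome 7, 141055138 to 141073340), a tetraspanin of the cell membrane, had 124, 165 and 139 normalized counts in knockout and 313, 365 and 297 in wild-type mice (log2 fold change −1.19 with an SE of 0.14 and a BH-adjusted edgeR p of 0.0031). With both scores the change was −1.46 (SE 0.19, adjusted p = 0.014), and it was the one gene outside the clock lists that this model called. *Aldh1a3*, which makes retinoic acid, had 623, 571 and 486 against 1314, 944 and 1101 (log2 fold change −1.0 with an SE of 0.15 and a BH-adjusted edgeR p of 0.016). *Aldh1a7* had 611, 496 and 581 against 1075, 1455 and 970 (log2 fold change −1.05, SE 0.15, adjusted p = 0.011 in that test). It is a close copy of *Aldh1a1* (log2 fold change −0.32, edgeR, Benjamini-Hochberg adjusted p = 0.33), so that reads may be divided between them. *Aldh1a2*, the third enzyme that makes retinoic acid, had 39.2, 70.3 and 49.0 against 19.2 to 30.5 and was not called (log2 fold change 1.15, SE 0.53).

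The transcription factor *Dmrt2* had 129, 164 and 124 normalized counts against 281, 416 and 356 (log2 fold change −1.34 with an SE of 0.19 and a BH-adjusted edgeR p of 0.011). *Homer2*, a scaffold of calcium signalling in exocrine cells, had 2311, 1616 and 1700 against 3593, 3331 and 3382 (log2 fold change −0.87, SE 0.13, adjusted p = 0.013 in that test). *Alas1*, the first enzyme of heme synthesis, had 2908, 2345 and 2802 against 4620, 4383 and 4206 (log2 fold change −0.71 with an SE of 0.12 and a BH-adjusted edgeR p of 0.030). *Homer2* and *Alas1* kept 64.4% and 56.7% of their change, whereas *Dmrt2* kept 115%. *Smpdl3b*, a phosphodiesterase of the cell surface, *Frmpd1*, a scaffold protein, and *Acsl6*, an acyl-CoA synthetase, had log2 fold changes of −0.99, −1.31 and −1.30.

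Genes of the secretory cells were not called by edgeR. None of 11 acinar genes and none of 17 genes of the granular convoluted tubules was a DEG by edgeR, and their medians were −0.32 and 0.17. In edgeR 5 and 0 of them had an unadjusted p under 0.05, against 11.5% of all genes. DESeq2 called 1 (*Lpo*) and 0, against 2.31% of all genes. With both scores in the model the medians of the acinar and tubule genes were −0.25 and −0.33. *Aqp5*, the acinar water channel, had 6630, 4590 and 4799 normalized counts against 7309, 8269 and 7480 (log2 fold change −0.53, edgeR, Benjamini-Hochberg adjusted p = 0.22), and *Lpo*, the lactoperoxidase of saliva, 19349, 11913 and 12572 against 19620 to 26575 (−0.70, adjusted p = 0.18). Of 12 immediate early genes 11 had a positive log2 fold change (median 0.58) and none was a DEG by edgeR. Of the 12, 6 had an unadjusted p under 0.05 in edgeR and 2 were called by DESeq2, against the same shares of all genes. *Fosb* had 15.9, 271 and 111 against 2.46 to 12.4 (log2 fold change 3.98 with an SE of 0.87 and a BH-adjusted edgeR p of 0.11). With both scores the log2 fold change was −0.14 for *Aqp5* and 1.13 for *Fosb*, and the median of the immediate early genes was 0.39. Of 30 genes of mucin-type O-glycosylation, 25 chemokine genes and 16 cytokine genes, edgeR called 0 and DESeq2 1, 2 and 1, while 10, 10 and 4 had an unadjusted p under 0.05, against 2.31% of all genes called by DESeq2 and 11.5% with such a p. The 30 O-glycosylation genes include 2 annotated entries of the symbol *St6galnac2*, which had the 2 smallest p of that list in edgeR. In 4 of the 10 O-glycosylation genes, *B3gnt6*, *Galnt5*, *Galntl6* and *Gcnt3*, wild-type replicate 3, the library with sublingual RNA, was far above all other males. Without it 5 O-glycosylation, 6 chemokine and 3 cytokine genes had such a p, against 8.27% of all genes. The medians of these 30, 25 and 16 genes were −0.03, 0.65 and 0.22, and with both scores −0.17, −0.03 and −0.20.

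Without knockout replicate 1 the lists of fat, macrophages and connective tissue came to the fore. Of the 635 genes called in that fit, 323 were up-regulated and 312 down-regulated, and 9 of 18 adipocyte markers, 12 of 24 macrophage markers and 7 of 10 fibroblast markers were among them, all up-regulated, against 3.42% of all genes. For 223 of the 631 genes also tested with that mouse, its value lay within the range of the wild-type males, and for 61 beyond that range on the other side. *Adipoq*, the fat cell hormone adiponectin, had 17.7 normalized counts in this mouse and 294 and 167 in the other knockout males, against 3.07 to 4.93 in the wild type (log2 fold change without it 5.90, edgeR, Benjamini-Hochberg adjusted p = 0.031). The macrophage chemokine *Pf4* had 83.0 in this mouse, 209 and 165 in the others and 43.0 to 62.4 in the wild type (log2 fold change without it 1.82, adjusted p = 0.0070 from the same fit). Of the 14 clock DEGs, 6 had a larger and 8 a smaller absolute log2 fold change without the mouse. That of *Bmal1* was 2.67 without the mouse and 2.87 with it, and that of *Hlf* −1.19 and −1.34, whereas those of *Per3* (−2.17 and −2.05) and *Ciart* (−3.58 and −3.11) were larger without it.

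Whether these changes differed from those in females was tested by the interaction of sex and genotype. It was called for 16 of the 42 DEGs, against 25.7% of all genes. Because the genes were picked by the male contrast, larger differences in males were favoured. Sublingual RNA was present in libraries of both sexes, and its part in the interaction was not tested. For 39 genes the direction was the same in both sexes, the exceptions being *Slc4a11*, *Rhob* and *Gm7488*. *Npas2*, *Bmal1*, *Dbp*, *Tef*, *Ciart* and *Per2* had log2 fold changes of 3.52, 3.45, −2.58, −1.41, −2.91 and −1.71 in females and no called interaction. *Per3* changed less in females (−0.91) than in males (−2.05), with an interaction of −1.14 (SE 0.28 and a BH-adjusted edgeR p of 0.013). *Bhlhe41* and *Usp2* changed more in females (−1.84 and −2.28) than in males (−0.85 and −0.82), with interactions of 1.00 (SE 0.15 and a BH-adjusted edgeR p of 0.0031) and 1.47 (SE 0.19, adjusted p = 0.0027).

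Outside the clock, 10 genes had a larger absolute change in males with a called interaction. *Slc4a11* had opposite signs, with −1.14 in males and 0.41 in females (interaction −1.56 with an SE of 0.20 and a BH-adjusted edgeR p of 0.0027). *Dpt* had a log2 fold change of 1.84 in males and 0.05 in females (interaction 1.78, SE 0.39, adjusted p = 0.0088 in that test), and *Adamts5*, *Rhoj*, *Gfpt2* and *Rhob* had 0.54, 0.41, 0.23 and −0.06 in females. The interaction was called as well for *Sphkap*, *Dmrt2*, *Slc9a4* and *Atp6v1b1*, whose log2 fold changes in females were 1.16, −0.36, −0.21 and −0.23. *Tspan4*, *Aldh1a7* and *Smpdl3b* changed more in females, by −1.90, −1.81 and −1.59. *Col5a3* (1.58), *Spon2* (1.44) and *Arhgap20* (1.46) had values in females near those in males and no called interaction. With both scores in the model, the interaction was called for 0 of the 42 genes, and for 2 over all genes. The adipocyte score was −0.80, 0.53 and −0.87 in knockout and −0.36, 0.63 and 2.86 in wild-type females. The value of 2.86 was that of wild-type female replicate 3 alone. The higher score of the knockout males was thus not seen in knockout females.

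**Figure D5:**
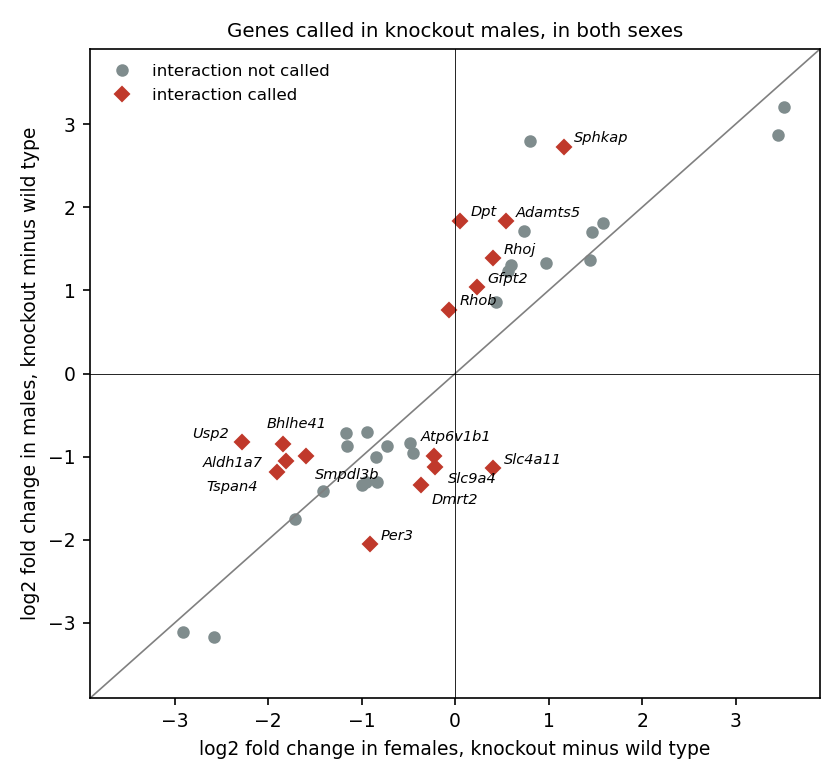
Log2 fold change of the DEGs of knockout males in females (horizontal axis) and in males (vertical axis), with the line of equal values. Red diamonds with names mark genes whose difference between the sexes was called (edgeR interaction, adjusted p under 0.05), among them *Slc4a11*, which lies at 0.41 in females and −1.14 in males; *Gm7488* is left out because it had a count of 0 in all females.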

How the data were processed

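RNA was extracted from frozen SMGs, and stranded libraries depleted of ribosomal RNA were sequenced as read pairs; the labels name polyadenylated RNA and cell pellets instead. Per the submitters' processing notes and the methods, the authors quantified the Gencode M35 transcripts on GRCm39 with Salmon 1.10.1 and deposited estimated counts per gene, of which 78.9% were whole to within 1e-09. A second deposited table holds a normalized signal, the counts divided by factors whose origin is not given in the sources used here, and served as an alternative only. Of 56065 genes listed, 55563 were in Gencode M39, which gave symbols and GRCm39 positions.

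Estimated counts were rounded and analysed in R 4.3.3 with edgeR 4.0.16 (TMM, filterByExpr, quasi-likelihood fit with 1 mean for each of the 4 groups, Benjamini-Hochberg adjustment over all genes tested). SE is that of a log2 fold change, knockout minus wild type. Log2 CPM used a prior count of 2. Scores were added as covariates in the same model over 12 libraries. A DEG was set aside when it was on the adipocyte or macrophage list, or when its log2 fold change with both scores turned sign or fell under 50%. Named genes were the 15 up-regulated and 15 down-regulated DEGs with the smallest adjusted p, DEGs on a list, up to 4 further list members with the smallest p, TC genes, and *Slc4a11*, *Ano4* and *Muc20*. The promoter rule took the 3 clock and 3 other DEGs with the smallest adjusted p. Members and lists were chosen with earlier results of these data known. Alternatives were RLE, upper-quartile and the authors' scaling, other low-count filters, a fit of the males alone, DESeq2 1.42.0, a replicate block, and each male library left out. The fits were tested on simulated data. P-values measure the spread between these mice, and total counts of 49620018 to 67882207 set the counting error.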

Additional observations from a re-analysis of the deposited data

Results flagged for a closer look

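The interaction of sex and genotype, in the direction male minus female, was called for 16 of the 42 DEGs of knockout males and for *Ano4* (edgeR, Benjamini-Hochberg adjusted p under 0.05). The change differed between the sexes by −1.14 in *Per3*, 0.71 in *Tspan4*, 1.00 in *Bhlhe41*, 1.47 in *Usp2*, 0.76 in *Aldh1a7* and 0.61 in *Smpdl3b* on the log2 scale, and of these *Per3* alone changed more in males. The difference was 1.57 in *Sphkap*, 0.98 in *Rhoj*, 1.29 in *Adamts5*, 1.78 in *Dpt*, 0.81 in *Gfpt2* and 0.82 in *Rhob*, all up-regulated in males. It was −1.56 in *Slc4a11*, −0.98 in *Dmrt2*, −0.91 in *Slc9a4*, −0.77 in *Atp6v1b1* and −2.61 in *Ano4*, all with lower values in knockout males. With both scores in the model the interaction was called for none of the 42 DEGs, and for 2 genes in all. Single outlying values within a group of 3 mice were not searched for by a test; the libraries said to stand apart were identified from marker genes and correlations.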

How the results depend on the processing

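The number of DEGs (42, and 29 with an absolute log2 fold change above 1) stayed within a factor of 1.5 with RLE (42), upper-quartile (40) and the authors' scaling (31), at least 10 counts in every male library (55), males alone (31) and a replicate block (44, of which 33 were among the 42). Nothing states that equal replicate numbers mark paired mice, and correlations of deviations between males of the same number were 0.090, 0.0044 and −0.13. Without a low-count filter there were 389 DEGs, 237 above the limit, 325 without overlap and 166 apart from fat and macrophages; with DESeq2 396, 197, 370 and 217. Without the 2 male libraries with other-gland RNA each of these numbers was 9. With the adipocyte score each was 8, with the macrophage score 10 and with both 7. With the 75% limit 27 genes were left. With 1 mouse left out, DEGs and DEGs without overlap ranged from 13 to 635, those above the limit from 12 to 316 and those apart from fat and macrophages from 13 to 366; each maximum was without knockout replicate 1. With 1 mouse left out the adipocyte score difference lay between 1.92 and 3.40, and it was 0.51 over the 5 most abundant markers; for macrophages it ranged from 0.60 to 1.04. The causes were not tested. None of the 42 DEGs changed sign in any setting. Among genes with a log2 fold change printed here and not called, those that did were *Per1* (−0.30 to 0.16 with 1 mouse left out, the latter without wild-type replicate 1, 0.08 with the adipocyte score, 0.04 with both), *Bhlhe40* (−0.26 without knockout replicate 1, 0.01 without knockout replicate 2, 0.00 and 0.09 with the adipocyte and both scores), *Cftr* (−0.49, 0.14 and 0.15 without knockout replicates 1, 2 and 3, 0.05 without wild-type replicate 1, 0.15 without the 2 other-gland libraries, 0.22, 0.57 and 0.62 with the adipocyte, macrophage and both scores), *Alox5* (−0.15 with the macrophage score), *Col3a1* (−0.09 with both) and *Aldh1a2* (−0.07 with the macrophage score). Genes with few counts, such as *Pou2f3*, could not be compared at this depth.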
